A study of Macaca fascicularis with 44 samples.

Results

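The cells described here are EXMC cluster 10, a subtype of extraembryonic mesenchyme (EXMC) in cultured embryos of the cynomolgus monkey. They are the cells that the authors' annotation places in the class EXMC and in cluster 10 of their clustering at resolution 2. The rule found 143 cells of 1185 EXMC cells, which is 12.1% (95% exact binomial interval 10.3 to 14.1), and of 3682 cells in all, which is 3.88%. The other 1042 EXMC cells fall into 6 clusters numbered 1, 4, 6, 9, 11 and 21, and the 2497 remaining cells into 11 other classes. No cell of cluster 10 lay outside the class EXMC.

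RNA was counted in single cells of 9 wild type Macaca fascicularis embryos that were fertilised by sperm injection and grown in culture, in 44 libraries. The embryos were taken apart at embryonic days E16 (2 embryos), E18, E20, E21, E22, E23, E24 and E25 (1 embryo each), so from E18 on a day and its embryo cannot be told apart. The annotation gives the embryos E16-1, E18-1, E21-1 and E23-1 as male and E16-2, E20-1, E22-1, E24-1 and E25-1 as female. Per the labels' protocols the extraembryonic tissue was removed before the inner embryonic bodies were dissociated, and EXMC cells are among those that were nevertheless sequenced. No group carries a treatment or a changed allele.

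Extraembryonic mesenchyme is the loose connective tissue that lies between the trophoblast and the amnion and yolk sac, and the connecting stalk and the stroma of the placental villi form from it. It secretes a matrix rich in fibrillar collagen and fibronectin. Mesenchymal cells that take up a contractile program express smooth muscle actin and the proteins that bind it, while matrix metalloproteases such as MMP3 (stromelysin-1) are secreted enzymes that cleave matrix proteins and are held in check by the TIMP inhibitors.

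The depth of the cells was like that of their neighbours. The median total count was 107608 in cluster 10 cells (6041 to 844641) and 107827 in other EXMC cells (1870 to 976689). DNA of the same cell was also sequenced for 26.6% of cluster 10 cells and 22.4% of other EXMC cells, and no cell name occurred in more than 1 library. In libraries 26 and 27, with 149 cells of which 17 were cluster 10, the day in the title is not the day given as time. Values per embryo follow the annotation and include both libraries, while the test between days leaves them out. The 12 cluster 10 cells of E20-1 stood apart from the rest, with a median total of 253259 counts and a different set of leading genes, and a later paragraph gives the named genes without that embryo.

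Cluster 10 cells were found in 7 of the 9 embryos, and their share of EXMC differed widely from embryo to embryo. There were none among 3 EXMC cells in E16-1, 4 of 188 (2.13%, interval 0.583 to 5.36) in E16-2, 10 of 146 (6.85%, 3.33 to 12.2) in E18-1, 12 of 57 (21.1%, 11.4 to 33.9) in E20-1 and 60 of 275 (21.8%, 17.1 to 27.2) in E21-1. Later embryos had 3 of 15 (20%, 4.33 to 48.1) in E22-1, 0 of 148 in E23-1, 49 of 87 (56.3%, 45.3 to 66.9) in E24-1 and 5 of 266 (1.88%, 0.613 to 4.33) in E25-1. The exact interval of the 0 of 148 in E23-1 allows a share of up to 2.46%. The intervals cover counting error only. The shares did not follow the order of days, and the highest share, in E24-1, stood between very low ones in E23-1 and E25-1. Within E24-1 the 3 libraries gave 35.3%, 58.8% and 75.0%, and within E21-1 the 6 libraries gave 16.7% to 30.4%, so the 2 embryos did not overlap library by library. With 1 embryo a day and clusters made from the same cells, no test was made of these shares.

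**Figure D1:**
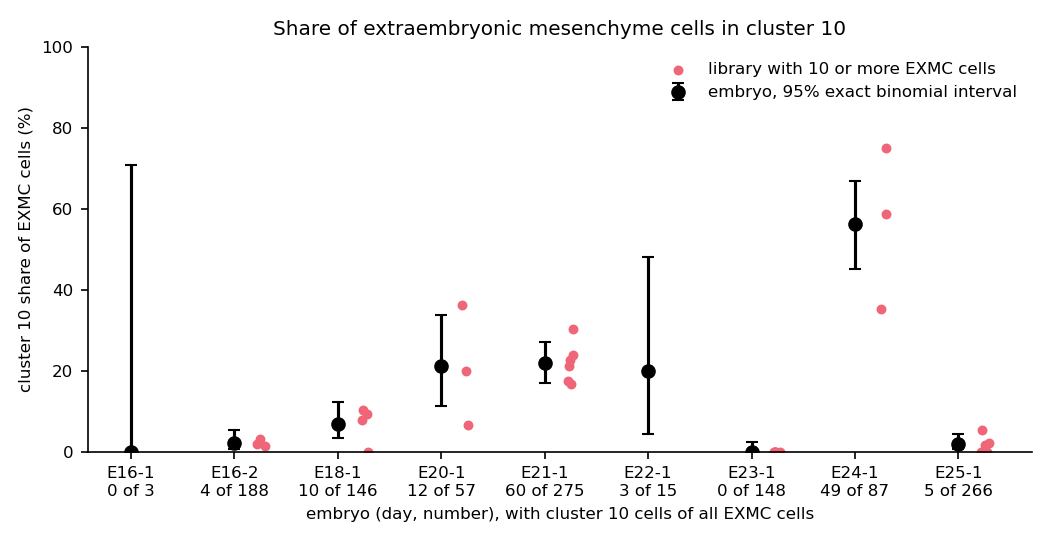
Share of EXMC cells (in %) that belong to cluster 10, by embryo in the order of days. Black points are embryos with their 95% exact binomial interval, red points are libraries with 10 or more EXMC cells, and the axis labels give the cells counted. E24-1 stands highest at 56.3%, and E23-1 has no cluster 10 cell among 148.

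MMP3, the marker by which the cluster had been labelled, was present in few of its cells. At least 1 MMP3 count was found in 16 of 143 cluster 10 cells (11.2%), against 108 of 202 cells of cluster 6 (53.5%) and 7 of 233 cells of cluster 1 (3.00%). In trophoblast classes the share of cells with a count was 6.71% in extravillous trophoblast (EVT), 3.10% in cytotrophoblast (CTB) and 8.11% in syncytiotrophoblast (STB). It was 0 of 59 in Neural ectoderm cells, which allows up to 5.08% when the limit of a zero is taken as 3 of 59. Of the 549 MMP3 counts in cluster 10, 518 (94.4%) came from 5 cells with 191, 160, 79, 60 and 28 counts. Of these 5 cells 3 were of E21-1, 1 of E18-1 and 1 of E20-1. A few cells with high MMP3 and many with none thus made up the pooled level of 27.7 CPM (counts scaled to the total of the summed cells in the usual way), which was below the 79.5 CPM of cluster 6 and above the levels of the other 5 EXMC clusters (0.0916 to 3.32 CPM).

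By embryo, MMP3 stood at 51.5 CPM in cluster 10 cells of E18-1, 38.2 in E20-1, 44.9 in E21-1, 0.673 in E24-1 and 5.44 in E25-1. In the other EXMC cells of the same embryos it stood at 0.35, 5.56, 1.98, 0.408 and 0.0304 CPM in that order. In pooled cells it was higher in cluster 10 in each of the 5 embryos. In E24-1, which holds 49 of the 143 cells, both levels were under 1 CPM and rest on 4 and 2 counts. Within that embryo MMP3 was not higher in cluster 10 in any library. The levels were 0 against 0.295 CPM in library 20, 1.33 against 1.47 CPM in library 21 and 0 in both groups in library 27. The cluster 10 level of E25-1 rests on 4 counts in 1 cell. The 4 cluster 10 cells of E16-2 had no MMP3 count, while the other EXMC cells of that embryo had 88.4 CPM. In these data the cells are therefore described by their cluster number and by the contractile genes given next, and not as a type that expresses MMP3.

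**Figure D2:**
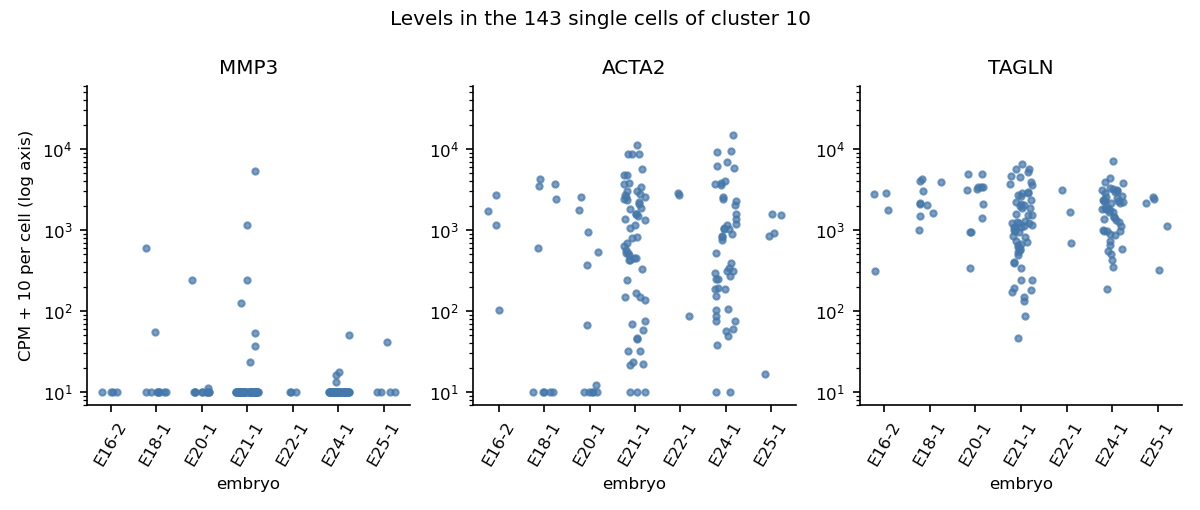
Levels of MMP3, ACTA2 and TAGLN in each of the 143 cells of cluster 10, as CPM + 10 on a log axis, by embryo. Most cells lie at the floor for MMP3 (16 of 143 have a count), whereas all 143 have a TAGLN count and 128 an ACTA2 count.

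In the 5 embryos compared, cluster 10 cells had higher levels of contractile genes than the other EXMC cells of the same embryo. The comparison used the log2 ratio of CPM + 10 in the 5 embryos with at least 5 cells of both kinds (E18-1, E20-1, E21-1, E24-1 and E25-1), and a gene was counted as higher or lower with a mean past 1 in size and the same sign in every embryo. The clusters were made from these genes, so the ratios are a description with no test. Of 19103 genes with counts, 69 were higher (0.361%) and 29 were lower (0.152%). Both the median of all genes (-0.0067) and that of the 3169 genes with at least 50 CPM in either group (0.0080) were close to 0.

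ACTA2, which encodes smooth muscle alpha-actin, had the highest mean ratio of the named genes. It stood at 2349.0, 841, 2341.4, 1903.0 and 866 CPM in cluster 10 cells of E18-1, E20-1, E21-1, E24-1 and E25-1, against 138, 45.8, 427, 191 and 185 CPM in the other EXMC cells of these embryos, a mean log2 ratio of 3.15 ± 0.84 (SD, n = 5 embryos). In these 5 embryos the levels of the 2 groups of cells did not overlap. Embryos with too few cells for the comparison went both ways. In E16-2 ACTA2 stood at 1650.3 CPM in 4 cluster 10 cells, below the 3387.8 CPM of the 184 other EXMC cells. In E22-1 it stood at 1287.7 CPM in 3 cluster 10 cells and at 5.55 CPM in 12 other EXMC cells. ACTA2 was counted in 128 of 143 cluster 10 cells (89.5%), in 61.5% of other EXMC cells and in 22% of the 59 Neural ectoderm cells, which are not known for the gene and had a median total of 111271 counts. Within cluster 10 the level varied from cell to cell. In E18-1 the cell with most counts held 53.2% of all ACTA2 counts, in E20-1 49.9%, in E25-1 44.5%, in E21-1 16.9% and in E24-1 15.1%.

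TAGLN, which encodes transgelin, an actin-binding protein of smooth muscle, was more even. Its levels were 2683.9, 2794.4, 1905.4, 1942.2 and 1369.1 CPM in cluster 10 cells and 609, 632, 617, 715 and 386 CPM in other EXMC cells, in the same order of embryos. The mean log2 ratio was 1.82 ± 0.31. It was counted in all 143 cluster 10 cells and in 91.1% of other EXMC cells. MYL9, the regulatory light chain of smooth muscle myosin, was as even at 1.63 ± 0.37, with 171 to 285 CPM in cluster 10 and 28.1 to 90.8 CPM in other EXMC cells. These 2 genes had the smallest spread between embryos among the 7 contractile genes past the threshold.

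CNN1, which encodes calponin, had 171, 150, 119, 99.3 and 28.6 CPM in cluster 10 cells against 6.85, 4.24, 31.4, 21.8 and 12.3 CPM in other EXMC cells (mean log2 ratio 2.22 ± 1.19). In E20-1 a single cell held 80.5% of the CNN1 counts. ACTG2, the gamma-actin of enteric smooth muscle, had 817, 83.5, 939, 1226.7 and 264 CPM against 56.8, 64.3, 221, 50.8 and 36.7 CPM (2.58 ± 1.55). In E20-1 its levels were close (ratio 0.33) and 1 cell held 96.6% of the counts. ACTG2 and ACTA2 are separate genes that encode near-identical proteins. Reads may have been split between them at alignment, which was not tested.

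Of the list of contractile genes, 13 of 15 were measured and 7 of them were higher, none lower. Of all genes with counts, 0.361% were higher and 0.152% lower. The list was chosen with earlier results of these data known. The 7 are ACTA2, ACTG2, CNN1, LMOD1 (leiomodin, an actin nucleator, 2.05 ± 0.78), TAGLN, MYL9 and TPM2 (beta-tropomyosin, 1.31 ± 0.45). All 13 had a mean ratio above 0, with a median of 1.31. CALD1 (caldesmon, 0.99 ± 0.17) and TPM1 (0.59 ± 0.32) were higher in every embryo but under the threshold. MYH11, the myosin heavy chain of mature smooth muscle, was low in both groups, with 1.85 to 28.2 CPM in cluster 10 and 2.86 to 14.8 CPM in other EXMC cells. DES (desmin) was lower in E20-1 and higher in the other 4 embryos.

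The other named genes had varied roles. ACTN1 (alpha-actinin-1, which crosslinks actin) had a mean log2 ratio of 2.22 ± 0.75, CSRP1 (a LIM protein of the actin cytoskeleton) 1.73 ± 0.95, MYLK (myosin light chain kinase) 1.43 ± 0.85, DPYSL3 1.40 ± 0.58, FILIP1L 2.03 ± 1.45 and LMNA (lamin A/C of the nuclear envelope) 1.57 ± 0.93. Among integrins, the receptors for matrix, 2 of 14 measured were higher, namely ITGA5 (1.05 ± 0.54), the fibronectin receptor subunit, and ITGAV (1.01 ± 0.11). ITGAV was even between embryos, with 135 to 150 CPM in cluster 10 and 63.4 to 71.9 CPM in other EXMC cells. CDH2, which encodes N-cadherin, was the 1 of 12 cadherins that was higher (1.60 ± 1.09). The share of higher genes among all genes with counts was 0.361%.

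Receptors and cell surface proteins were also among the 25 named higher genes. TNFRSF12A, the receptor of the cytokine TWEAK, had 565, 1101.5, 451, 202 and 287 CPM in cluster 10 against 53.6, 56.6, 139, 55.9 and 91.6 CPM in other EXMC cells (2.42 ± 1.14). By embryo, no level of 1 group reached the range of the other. By library TNFRSF12A was higher in cluster 10 in 7 of 9 libraries of E21-1 and E24-1. It was lower in library 23 (128 against 146 CPM) and library 25 (228 against 245 CPM). CD44, the hyaluronan receptor, averaged 1.74 ± 1.53, but E20-1 alone stood at 326 against 7.45 CPM, while the other 4 embryos had 21.2 to 31.1 CPM in cluster 10 and 1.47 to 18.2 CPM in other EXMC cells. LAYN (layilin, another hyaluronan receptor) stood at 1.39 ± 0.76, CD9 (a tetraspanin) at 1.58 ± 0.65, FLT1 (a VEGF receptor) at 1.5 ± 0.62 and ANPEP (aminopeptidase N) at 1.42 ± 1.14.

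The cell cycle genes CCND1 (cyclin D1, 1.65 ± 1.17) and CDKN2B (an inhibitor of the kinases that cyclin D1 binds, 1.43 ± 0.92) were both higher, as was the kinase gene STK38L (1.58 ± 1.07). No member of the list of proliferation and replication genes, with 18 measured, was past the threshold. Of the secreted proteins, CCDC80 had 259 to 2142.6 CPM in cluster 10 and 187 to 449 CPM in other EXMC cells (1.37 ± 0.89), and MXRA5 had 10.9 to 193 CPM against 0.471 to 10.8 CPM (1.60 ± 1.58). ENSMFAG00000039395 (1.69 ± 0.77) and ENSMFAG00000034458 (1.53 ± 0.86) complete the 25. They carry no gene name in the files.

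**Figure D3:**
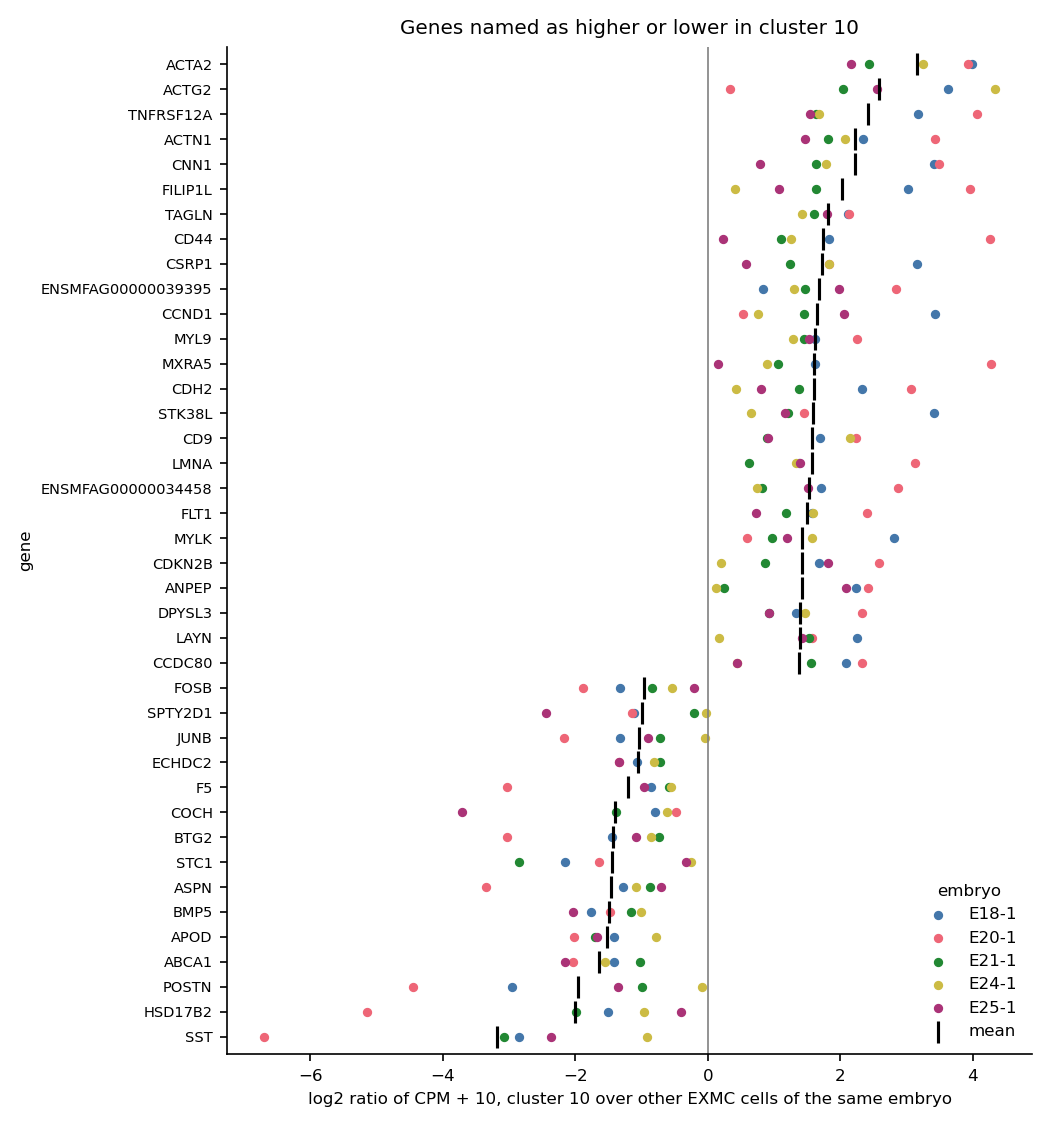
Log2 ratio of CPM + 10 in cluster 10 cells over other EXMC cells of the same embryo, for the 25 genes named as higher and the 15 named as lower. Coloured points are the 5 embryos and black bars their mean. ACTA2 has the highest mean at 3.15 and SST the lowest at -3.18, and E20-1 holds many of the most extreme points.

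The genes that were lower in cluster 10 include a hormone and matrix proteins of this tissue. SST, which encodes the peptide hormone somatostatin, had 24.5, 7.11, 187, 2331.4 and 8.17 CPM in cluster 10 and 238, 1773.9, 1656.4, 4399.9 and 84.1 CPM in other EXMC cells (mean log2 ratio -3.18 ± 2.14). E24-1 was highest in both groups of cells, and cluster 10 was lower in each embryo. POSTN (periostin, a matricellular protein and a marker of EXMC) had 34.3, 9.96, 254, 422 and 338 CPM against 333, 425, 514, 449 and 880 CPM (-1.97 ± 1.73). In E24-1 its levels were close, and the sign there rests on library 27, whose labels disagree. With libraries of agreeing labels alone E24-1 had 433 CPM in cluster 10 and 426 CPM in other EXMC cells, so POSTN was then not lower in every embryo. ASPN (asporin, a small leucine-rich proteoglycan) stood at 67.8, 1.19, 505, 883 and 226 CPM in cluster 10 against 180, 104, 933, 1880.7 and 374 CPM in other EXMC cells (-1.46 ± 1.08).

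BMP5, a bone morphogenetic protein, was lower by an even amount, with 152, 202, 185, 243 and 40.8 CPM in cluster 10 and 541, 579, 426, 501 and 197 CPM in other EXMC cells (-1.49 ± 0.42). It was the 1 of 19 measured genes of the BMP list that was past the threshold. ABCA1, which exports cholesterol from cells (-1.64 ± 0.47), APOD (apolipoprotein D, -1.52 ± 0.46), HSD17B2 (an enzyme that inactivates oestradiol and testosterone, -2.0 ± 1.85) and F5 (coagulation factor V, -1.20 ± 1.04) were lower in every embryo. So were the secreted glycoprotein gene STC1 (-1.44 ± 1.14), BTG2 (-1.43 ± 0.94), COCH (-1.40 ± 1.34), ECHDC2 (-1.06 ± 0.29) and JUNB (-1.03 ± 0.79), the 1 of 17 AP-1 and immediate early genes past the threshold. SPTY2D1 (-0.99 ± 0.96) and FOSB (-0.96 ± 0.66) were also lower in each of the 5 embryos, but their means did not pass -1. VEGFC, a growth factor for lymphatic vessels, was the 1 lower gene of 25 measured growth factors and receptors (-1.05 ± 0.59).

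No collagen was past the threshold, but their summed level was lower in cluster 10 in each of the 5 embryos. The 17 measured collagens summed to 27516.7, 13955.6, 34350.6, 25772.8 and 28833.3 CPM in cluster 10 and 33130.3, 31422.8, 41496.6, 28081.9 and 31160.8 CPM in other EXMC cells, in the usual order of embryos, and E20-1 had the widest gap. Of the 17, 3 had a mean log2 ratio above 0, and the median was -0.22. COL1A1 had 4320.7 to 10715.7 CPM in cluster 10 cells and 5465.4 to 10831.2 CPM in other EXMC cells (mean log2 ratio -0.10 ± 0.17), COL1A2 stood at -0.31 ± 0.28 and COL3A1 at -0.59 ± 0.61. None of 15 basement membrane genes was past the threshold. FN1 (fibronectin, 0.07 ± 0.38) and SPARC (0.01 ± 0.22) had nearly the same level in both groups. CCN4, a matricellular WNT target, was higher (1.05 ± 0.56), and TNC (tenascin C) averaged 2.40 ± 1.95 but had no count in the cluster 10 cells of E25-1, where other EXMC cells had 1.25 CPM.

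Among the proteases and their inhibitors, TIMP3, which binds to matrix and inhibits metalloproteases, was higher in every embryo. It had 545, 1911.6, 553, 338 and 306 CPM in cluster 10 cells and 209, 478, 200, 186 and 122 CPM in other EXMC cells (1.37 ± 0.41). TIMP1 had 1676.6 to 5145.9 CPM against 994 to 3125.2 CPM (0.57 ± 0.33). MMP2, the gelatinase of mesenchyme, did not differ by more than the spread between embryos (-0.03 ± 0.70), nor did MMP14 (0.45 ± 0.54), the membrane protease that activates it. MMP9 reached 232 CPM in cluster 10 cells of E20-1 against 1.60 CPM in other EXMC cells, and was at most 10.6 CPM in both groups in the other 4 embryos. MMP1 had 40.1 CPM in cluster 10 cells of E21-1 and 9.26 in E24-1, against 12.6 and 0.408 CPM in other EXMC cells, and no count in cluster 10 in the other 3 embryos. MMP3 (1.41 ± 1.06) was the 1 of 18 metalloproteases with counts past the threshold, but its sign in E24-1 rests on 4 counts against 2. ADAM19 was the 1 of 16 ADAM and ADAMTS proteases past the threshold, and none of 10 genes of the plasminogen system was.

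The remaining lists held few genes past the threshold. SOD2, which removes superoxide (1.30 ± 1.17), was higher of 27 measured inflammatory genes and FAS, a death receptor (1.06 ± 0.68), of 14 p53 targets. No member was past it among ETS and MAPK feedback genes, collagen processing genes, mesothelial genes, lateral plate and cardiac genes, WNT genes, TGF-beta ligands and targets, insulin-like growth factor binding proteins, retinoic acid genes, HOX genes, hypoxia genes, endoplasmic reticulum chaperones, interferon response genes, imprinted growth genes or EMT transcription factors.

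Markers of the other cell types that the cells could hold were also summed. The 10 EXMC markers summed to 21809.2 to 44915.3 CPM in cluster 10 and 41706.8 to 52536.0 CPM in other EXMC cells, and none was at 0. The 8 smooth muscle markers summed to 6367.6 to 9800.2 CPM against 2418.1 to 3595.6 CPM. CTB markers summed to 58.8 to 759 CPM in cluster 10 (highest in E24-1) and 127 to 232 CPM in other EXMC cells, with ELF5 at 0 in cluster 10. EVT markers reached 2025.0 CPM in the 5 cells of E25-1 and stood at 167 to 440 CPM in the other 4 embryos, against 94.3 to 237 CPM in other EXMC cells, with PAPPA2 at 0. The EVT list holds FSTL3, which was higher in cluster 10 (mean log2 ratio 1.08 ± 0.10). That is a smaller gap than that of the E25-1 sum, which stood at 176 CPM in other EXMC cells. Mesothelial markers summed to 148 to 306 CPM against 79.8 to 362 CPM, with WT1 and UPK1B at 0 in cluster 10. KRT19 held 177 of the 186 CPM of that sum in cluster 10 cells of E21-1. Endothelial markers summed to 249 to 535 CPM against 341 to 536 CPM, with CLDN5 at 0. Amnion markers summed to 3321.8 to 4550.0 CPM against 5150.9 to 9804.0 CPM, with VTCN1, TFAP2B and WNT6 at 0. In cluster 10 cells of E21-1 IGFBP3 alone held 4361.5 of the 4368.8 CPM of this sum, which thus says little of the other members. STB markers reached at most 94.1 CPM in cluster 10 and 72.8 CPM in other EXMC cells, yolk sac endoderm markers 108 and 131 CPM, epiblast markers 62.6 and 47.2 CPM with SOX2 at 0, and embryonic mesoderm markers 70.9 and 63.9 CPM. Primitive streak markers reached 248 and 450 CPM, and neural ectoderm markers, which include CDH2, 247 and 48.5 CPM with SOX1 and HES5 at 0. Of the primitive streak sum of 179 CPM in cluster 10 cells of E21-1, FST held 177 CPM. Blood markers reached at most 0.284 CPM in cluster 10 and 1.35 CPM in other EXMC cells, and macrophage markers 6.06 and 9.05 CPM. The part of such RNA in the gene ratios was not tested.

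Many of the genes past the threshold depended on E20-1. Without E20-1 the counts were 68 higher and 29 lower genes, of which 49 and 17 were among those found with it. Of the 25 named higher genes 24 kept the rule without E20-1, and MXRA5 did not (0.93 ± 0.60). FILIP1L then had a mean log2 ratio of 1.54 ± 1.11, CD44 1.11 ± 0.66, ANPEP 1.17 ± 1.14 and CCDC80 1.13 ± 0.83. Of the 13 named lower genes past the rule 9 kept it, among them SST (-2.30 ± 0.97), HSD17B2 (-1.22 ± 0.68) and POSTN (-1.35 ± 1.2), while ASPN, ECHDC2, F5 (-0.74 ± 0.20) and JUNB (-0.75 ± 0.53) no longer passed -1. ITGA5, ITGAV, CCN4, SOD2, FAS, SPON2 and VEGFC also missed the threshold without E20-1. The same rule was also applied within the 9 libraries of E21-1 and E24-1 that hold at least 5 cells of both kinds. A mean past 1 in size with the same sign in all 9 was found for 19 higher and 13 lower genes. Of these, 11 and 8 were shared with the main counts. By sign alone, 9 of the 25 named higher genes were higher in all 9 libraries, and 8 of the 15 named lower genes were lower in all 9. MYL9 was one of the 9, with 163 to 376 CPM in cluster 10 and 60.4 to 135 CPM in other EXMC cells, and the 2 ranges did not overlap. BMP5 did not overlap either, with 88.2 to 267 CPM in cluster 10 and 342 to 607 CPM in other EXMC cells. ACTA2 was higher in all 9 libraries by a log2 ratio of 0.36 to 5.74. The upper end came from library 19, with 6247.3 CPM in cluster 10 and 107 CPM in other EXMC cells. Without library 19 the ACTA2 level of E21-1 was 1417.6 CPM in cluster 10, a log2 ratio of 1.24 in that embryo. ACTG2, CNN1 and TAGLN were higher in 8 of the 9 libraries, and MYLK and ANPEP in 5. The exceptions were library 18 for ACTG2 (269 against 600 CPM) and library 23 for CNN1 (45.4 against 71.5 CPM) and TAGLN (764 against 768 CPM).

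Several genes stood higher in the E20-1 cells than in cluster 10 cells of the other embryos. These genes were chosen after their values were seen. TDO2, which encodes a tryptophan-degrading enzyme of liver and decidua, stood at 643 CPM in cluster 10 cells of E20-1 and was counted in 7 of 12 of them, against 0.0943 CPM and 1 of 45 other EXMC cells. SPON2 (spondin 2) stood at 2170.8 CPM against 277 CPM in other EXMC cells of E20-1. IGFBP5 stood at 2226.5 against 159 CPM and the nucleotide receptor gene P2RY14 at 188 against 10.2 CPM in the same cells. In cluster 10 cells of E21-1 SPON2 stood at 241 to 665 CPM by library and IGFBP5 at 1034.9 CPM, so neither was particular to E20-1. In E21-1 TDO2 was counted in 6 of 60 cluster 10 cells (37.6 CPM) and in E24-1 in 1 of 49 (0.168 CPM). The E20-1 cells also had the lowest EXMC marker sum (21809.2 CPM), with POSTN at 9.96 and ASPN at 1.19 CPM. TDO2 stood at 0.592 CPM in EVT and 0.142 CPM in CTB cells of that embryo and had no count in its STB cells.

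High levels of these genes were shared with cluster 6. Of the 25 named higher genes, 18 ranked second after cluster 6 among the 7 EXMC clusters in pooled cells and 7 ranked first. Against the 11 other classes, 17 of the 25 were higher in cluster 10 than in any class. FILIP1L, MXRA5, ANPEP, LAYN and CCDC80 were highest in cluster 10 among all 18 clusters and classes in pooled cells, which include the high levels of E20-1. In E21-1 alone ANPEP stood at 142 CPM in cluster 10, below the 293 CPM of cluster 6, while the other 4 genes were higher in cluster 10 than in clusters 6 and 1. Cluster 6 took 184 of its 202 cells from E16-2, so its pooled levels and that embryo cannot be told apart. Pooled ACTA2 stood at 1811.4 CPM in cluster 10, 3339.5 in cluster 6 and 13.5 to 301 in the other 5 clusters, and CNN1 at 128, 224 and 0.648 to 17 CPM in the same order.

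In E21-1, which holds 13 cells of cluster 6 and 129 of cluster 1, the clusters can be set side by side within 1 embryo. ACTA2 stood at 2341.4 CPM in cluster 10, 3371.2 in cluster 6 and 123 in cluster 1. COL3A1 stood at 16558.2 CPM in cluster 10, 5373.1 in cluster 6 and 24179.4 in cluster 1, and COL1A1 at 10145.0, 3704.3 and 11890.6 CPM in the same order. POSTN was 254, 196 and 657 CPM, and MMP3 was 44.9, 0.708 and 1.2 CPM. The ACTA2 level of cluster 10 thus lay between those of clusters 6 and 1, also at the 1417.6 CPM found without library 19, and the levels of both collagens were nearer to those of cluster 1. Across 7739 genes the log2 profile of cluster 10 in E21-1 had a Pearson correlation of 0.961 with cluster 1, 0.955 with cluster 21, 0.919 with cluster 6, 0.890 with cluster 11, 0.840 with cluster 9 and 0.824 with cluster 4. These are correlations across genes of 1 embryo, and the clusters differ in their number of cells (5 to 129), so they are given as a description.

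**Figure D4:**
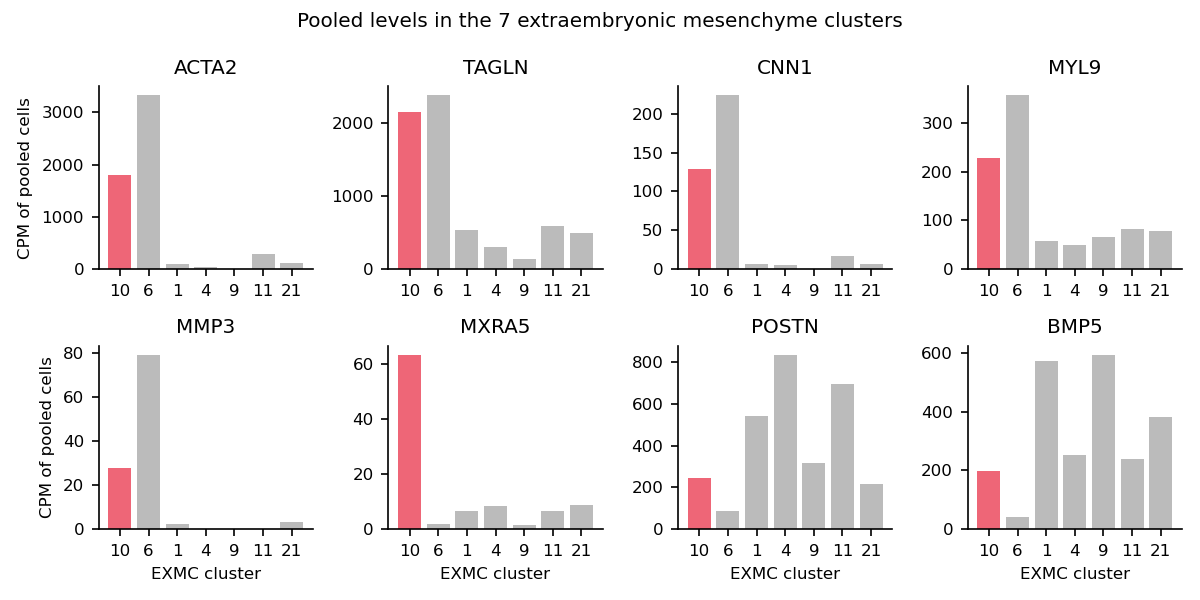
Levels of 8 genes in the pooled cells of the 7 EXMC clusters, in CPM, with cluster 10 in red at the left and the other clusters in grey. For ACTA2, TAGLN, CNN1 and MYL9 cluster 10 ranks second after cluster 6, for MMP3 likewise at 27.7 against 79.5 CPM, and MXRA5 is highest in cluster 10.

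Day could be tested between E24 and E21 only. Of the libraries with agreeing labels, 2 of E24 (20 and 21) and 5 of E21 (18, 19, 23, 24 and 25) held at least 5 cluster 10 cells, with 7 to 27 cells and 613773 to 3014250 counts each. All libraries of a day come from 1 embryo, and the E24 embryo is female and the E21 embryo male. The p-values measure the spread between libraries of an embryo, and day, embryo and sex cannot be told apart. With edgeR's quasi-likelihood test and Benjamini-Hochberg adjusted p under 0.05, 29 of 8883 genes were higher in E24 (0.326%) and 5 were lower (0.0563%). Both E24 libraries share a library code in their labels with E21 libraries 18 and 19, while the other 3 E21 libraries have another code. With the code as a term in the fit, 28 genes were higher, 20 of them among the 29, and 4 were lower, all among the 5.

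Immediate early genes, which respond within minutes to growth factors and stress, were higher in E24. Of 15 tested members of the list of AP-1 and immediate early genes, 6 rose and none fell, while 0.326% of all genes tested rose. The median log2 fold change was 2.03 over the list and -0.04 over all genes tested. The transcription factor gene EGR3 had 285 and 225 CPM in the E24 libraries, against 3.18, 5.19, 2.48, 41.7 and 8.15 CPM in the E21 libraries. The groups did not overlap, and the log2 fold change was 4.47 ± 0.65 (SE, edgeR adjusted p = 0.00101). DUSP1, a phosphatase that switches off MAP kinases, had 756 and 645 CPM in E24 against 9.78 to 85.2 CPM in E21 (4.14 ± 0.44, edgeR adjusted p = 4.1e-05). EGR2 (2.69 ± 0.42) and ATF3 (2.57 ± 0.48) also rose, with no overlap between libraries. EGR2 lost its call without library 21 and ATF3 without library 20, while EGR3, DUSP1 and CCN1 kept theirs without each library. CCN1, a matricellular target of the same signals, had 2323.5 and 2302.7 CPM in E24 against 327 to 661 CPM in E21 (2.35 ± 0.26, edgeR adjusted p = 4.66e-05). In other EXMC cells of the same libraries EGR3 (3.02), DUSP1 (2.71), EGR2 (2.11), ATF3 (2.12) and CCN1 (2.25) were also higher in E24 on the log2 scale, each past the same threshold.

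SST, the gene with the lowest ratio in cluster 10, differed between the days within the cluster. It had 3235.7 and 1893.0 CPM in cluster 10 cells of the E24 libraries, against 241, 102, 154, 339 and 16.3 CPM in those of E21 (log2 fold change 3.99 ± 0.52, edgeR adjusted p = 0.00048). Both E24 libraries were above every E21 library. In other EXMC cells it averaged 4188.1 ± 1149.6 CPM (SD, n = 2 libraries) in E24 and 1676.3 ± 425.2 CPM (n = 5) in E21, a log2 fold change of 1.48 that also passed. A count of SST was found in 89.7% of CTB cells of E24-1, a class not known for the gene, at 33.5 CPM.

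The largest named rises, ENSMFAG00000037049 (9.87 ± 1.24) and ENSMFAG00000034362 (8.88 ± 1.51), carry no gene name in the files. They had 120 and 23.2 CPM, and 59.5 and 12.9 CPM, in E24 and no count in E21. ENSMFAG00000019292, also without a name, had 55.7 and 37.2 CPM against 1.27 to 3.30 CPM (4.29 ± 0.82). It and ENSMFAG00000034362 lost the call with the library code as a term. MGP (matrix Gla protein, an inhibitor of calcification) had 53.1 and 366 CPM in E24, against 0 to 3.30 CPM in E21 (7.65 ± 0.76, edgeR adjusted p = 3.2e-05). Without library 21 the call was lost, with an adjusted p of 0.0774. CRABP1, which binds retinoic acid, had 228 and 167 CPM against 0.826 to 34.3 CPM in E21 (4.05 ± 0.68, edgeR adjusted p = 0.0043) and lost the call without library 20 (0.0924). The interferon-induced genes MX1 (4.63 ± 0.89) and IFI27 (4.32 ± 0.89) rose, as did IFI6 (2.09 ± 0.38). Thus 2 of 10 tested genes of the interferon list, MX1 and IFI6, passed, while 0.326% of all genes tested rose. MX1 lost its call without library 20 or 21 and IFI27 without library 18, 20, 21 or 24, and both lost it with the library code as a term. IFI6 lost its call without library 21. NDRG1 (1.82 ± 0.35), a gene induced by low oxygen, was the 1 of 14 of the hypoxia list that rose, and its call was lost without library 21 or with the code as a term.

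Of the trophoblast marker lists, 1 of 4 tested CTB markers rose in E24 and none of 5 EVT and 4 STB markers passed. The median log2 fold changes of these lists were 2.51, 1.86 and 2.18 in that order. The share of all genes tested that rose was 0.326%. CGA, which encodes the alpha subunit of the gonadotropins and is made by syncytiotrophoblast, had 648 and 679 CPM in cluster 10 cells of E24 against 0 to 33 CPM in those of E21 (5.32 ± 0.56, edgeR adjusted p = 4.1e-05). In other EXMC cells it averaged 582 CPM in E24 and 26.6 CPM in E21, and in STB cells of E24-1 it stood at 80742.1 CPM. All 49 cluster 10 cells and all 38 other EXMC cells of E24-1 had a CGA count. GATA3 had 12.8 and 71.0 CPM in E24 and 0.741 to 10.4 CPM in E21, and KRT7 25 and 45.5 CPM against 1.48 to 17.3 CPM. Neither passed the test (adjusted p = 0.218 and 0.696). PAGE4, the CTB marker that rose, had 1623.3 and 409 CPM in E24 against 100 to 229 CPM in E21 (2.77 ± 0.38, edgeR adjusted p = 0.000674). Without library 20 its call was lost, with an adjusted p of 0.5. In other EXMC cells PAGE4 averaged 182 CPM in E24 and 249.7 CPM in E21. The endothelial gene ESAM rose as well (3.49 ± 0.62), and its call was lost without library 21 or with the code as a term. The part of free RNA of other cells in the differences between E24 and E21 was not tested.

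The genes that fell in E24 were few. RESP18 had 0 and 0.664 CPM in E24 against 19.6 to 78.6 CPM in E21 (-6.58 ± 1.05, edgeR adjusted p = 0.00286), and TFPI2, an inhibitor of serine proteases, had 33.9 and 49.1 CPM against 158 to 637 CPM (-2.95 ± 0.51, edgeR adjusted p = 0.00534). Both lost the call without library 20, and TFPI2 also without library 21. DPT (dermatopontin, which binds collagen fibrils) had 27.5 and 113 CPM against 151 to 452 CPM (-2.25 ± 0.48). REC114 had no count in either E24 library against 9.64 to 57.0 CPM in E21. DPT kept its call only without library 21 or 24 among the 7 fits that each leave out a library, and REC114 only without library 19. The fifth gene, ENSMFAG00000040919, has no name in the files and lost its call without library 21.

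None of 12 tested contractile genes passed the test between the days. ACTA2 had 3828.4 and 1129.3 CPM in E24 against 1159.8, 6247.3, 817, 1020.5 and 1182.8 CPM in E21 (0.37 ± 0.59, edgeR adjusted p = 0.999), and TAGLN 2872.1 and 1395.4 CPM against 764 to 3778.2 CPM (0.47 ± 0.42). ACTG2 had 2227.5 and 763.7 CPM in E24 against 269, 1742.7, 467, 672 and 530 CPM in E21 (1.145 ± 0.47, edgeR adjusted p = 0.737), and without library 19 it passed (adjusted p = 0.0363). POSTN had 509 and 393 CPM against 116 to 386 CPM (0.92 ± 0.35, edgeR adjusted p = 0.635). MMP3 had 0 and 1.33 CPM in E24 against 173, 20.8, 14, 0 and 0 CPM in E21, which did not pass (adjusted p = 0.508), and none of 10 tested metalloproteases passed.

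Whether these differences were particular to cluster 10 was asked in a joint fit with the other EXMC cells of the same 7 libraries. The fit had no term for the library, so the 2 sums of a library entered as independent. A fit with the library as a block is given in the last paragraph. Of 10589 genes none had a difference between E24 and E21 that was itself different in cluster 10 after adjustment by edgeR (0%). An unadjusted p under 0.05 was found for 523 genes. As the sums of a library entered as independent, that share is not set against the one expected when no gene differs. With 2 libraries of E24, the lack of calls does not show that both groups of cells differed alike between the days. SST had an interaction of 2.51 on the log2 scale and PAGE4 of 3.08, with adjusted p of 0.909 and 0.84. In the other EXMC cells on their own, 200 of 10846 genes passed (1.84%), 116 of them higher in E24 and 84 lower. The counts of the 2 groups of cells are not themselves compared.

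**Figure D5:**
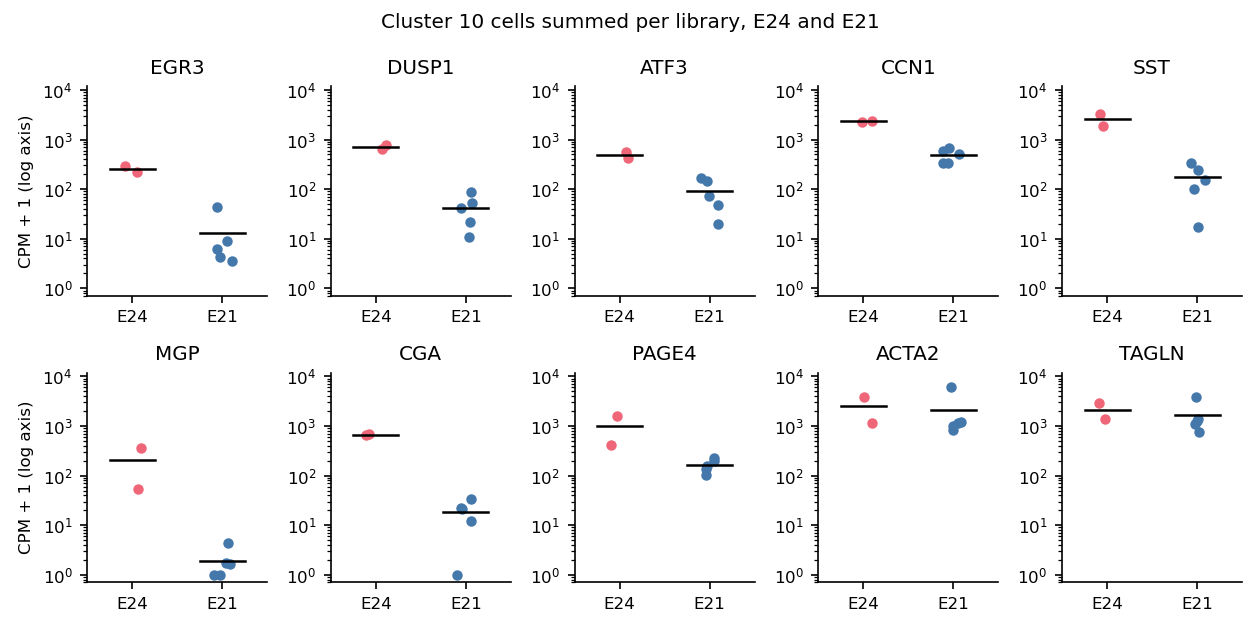
Levels in cluster 10 cells summed per library, as CPM + 1 on a log axis, in the 2 libraries of E24 (red, left) and the 5 of E21 (blue, right), with the mean as a black line. EGR3, DUSP1, ATF3, CCN1, SST, MGP, CGA and PAGE4 do not overlap between the days, while ACTA2 and TAGLN do, with library 19 of E21 highest in both.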

How the data were processed

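Raw counts per gene and cell were deposited by the authors with no normalization, as a table of 21834 genes, 16240 of them with a symbol (15290 found in the RefSeq gene table). Per the submitters' processing notes, reads were trimmed with cutadapt 1.15, aligned with STAR 2.6.0a and counted with HTSeq 0.10.0. The genome build is not given in the sources used here, nor are the strand setting and the use of molecular identifiers. Classes, clusters and embryos are the authors' annotation. No doublet caller was run.

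Counts were summed per embryo or library, since cells are not replicates, and CPM are counts over the total of the sum. Levels were compared within a gene only, as the counts are not scaled by length. Ratios used a pseudocount of 10 CPM and units with at least 5 cells of both kinds. Intervals are exact (Clopper-Pearson). The slope of day was to be tested with at least 6 libraries over 3 days, and as the 7 usable libraries cover 2 days, E24 was tested against E21 instead, with edgeR 4.0.16 in R 4.3.3 (filterByExpr, TMM, quasi-likelihood F test). DESeq2 1.42.0 was an alternative. The fit of cluster 10 between E24 and E21 was also run on simulated counts with independent libraries, and the joint fit was not. Whether the libraries of an embryo are separate samples of its tissue is not stated, so their spread may be technical.

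The genes named against other EXMC are the 25 highest and 15 lowest mean ratios with at least 50 CPM and 1 sign in every embryo. Between days they are up to 10 rises and 10 falls past the threshold with 1 sign without each library, 10 and 5 in number. To these come list members past the rule or test (at most 4 per list) and the metalloproteases. The members and the 32 functional and 15 marker lists were chosen with earlier results of these data known.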

Additional observations from a re-analysis of the deposited data

Results flagged for a closer look

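Within the 5 E21 libraries with agreeing labels, 78 values of cluster 10 were checked for a library far from the other 4, and 16 were. The rule gives about 1 in 20 for independent, normally distributed values, which CPM of few cells from the same libraries need not be. The 16 are therefore not set against that rate. All 16 are high values. Library 19 was far above the others in 8 of them, and all of these but MMP9 were genes counted as higher in cluster 10. ACTA2 stood at 6247.3 CPM in it against 817 to 1182.8 CPM in the others, ACTG2 at 1742.7 against 269 to 672, TAGLN at 3778.2 against 764 to 1401.3, CNN1 at 215 against 45.4 to 86.4, CSRP1 at 421 against 111 to 168, CCND1 at 1245.3 against 330 to 547, CD44 at 91.2 against 9.78 to 22.9, and MMP9 at 15.6 against 0 in each of the others. Its 10 cluster 10 cells include 1 with 33% of the ACTA2 counts, and 1 with 55.0% of the CCND1 counts.

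Library 24 was far above the others in BTG2 (172 against 22.3 to 39.3 CPM), EGR3 (41.7 against 2.48 to 8.15), FOSB (139 against 30.5 to 40.8) and TDO2 (176 against 0 to 14). Library 18 was highest in MMP3 (173 against 0 to 20.8 CPM) and COCH (110 against 5.19 to 34.3). REC114 stood at 57.0 CPM in library 25 against 9.64 to 17.9, and MGP at 3.30 CPM in library 23 against 0 to 0.745.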

How the results depend on the processing

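The counts against other EXMC cells moved as follows. A pseudocount of 1 CPM gave 117 higher and 405 lower genes, ratios within libraries 19 and 13, and cells thinned to 20000 counts 73 higher and 52 lower. Leaving out each embryo, or library 19, gave 65 to 89 higher and 29 to 84 lower genes, with 84 lower without E24-1, 72 without E21-1 and 46 without E25-1. TMM scaling (66 and 36), equal weight of the other clusters (64 and 26) and 3 alternatives chosen after seeing the data, equal weight of cells (73 and 36), no library 19 (65 and 29) and libraries of agreeing labels alone (74 and 28), stayed within 1.5 times. None of 41 gene ratios changed sign under any of these. The TMM factor of E20-1 was 0.15 on the log2 scale, and those of the other embryos were under 0.1 in size. Between E24 and E21, no filter on low counts gave 81 higher and 14 lower genes, DESeq2 47 and 19, and at least 10 cells per library 34 and 3. Leaving out each library gave 18 to 34 higher and 1 to 6 lower, with 18 and 1 without library 20, 18 and 3 without library 21, and 3 lower without library 18 or 25. The joint fit gave 7 higher and 6 lower genes with no filter, and 0 with the library as a replicate block. The cause was not tested. No pairing of E24 with E21 libraries was possible because they share no replicate number. Fits without E16 and with counts summed per embryo were not run, since no E16 library entered and each day has 1 embryo. Precision is limited by 5 to 12 cells in E18-1, E20-1 and E25-1 and by 2 libraries in E24.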
